A study of Drosophila melanogaster with 3 samples.

Results

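The genes examined here encode 10 factors that organise Drosophila chromatin and its broadly active promoters: Dref, BEAF-32, M1BP, Adf1, Trl, Chro, Cp190, CTCF, su(Hw) and mod(mdg4). They were taken by name from the annotation, and their foxo peaks are the summits of the reproducible dm6 peak list that lie inside the gene or within 1000 bp of it. This gave 20 of the 9766 peaks of that list, at 10 of 13945 annotated protein-coding genes. The data are ChIP-seq with an anti-GFP antibody in the strain foxo-MiMIC-GFP, in which an eGFP exon sits in an intron of foxo, so that the precipitated protein is a foxo-eGFP fusion. The material was whole wandering larvae of the third instar, males and females pooled, with the age not given. The 3 biological replicates form 1 group, with no untagged larvae and no input library analysed here, so signal that needs no foxo cannot be told apart from foxo binding. In whole larvae a site occupied in few cells and a site weakly occupied in many also cannot be told apart.

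Insulator proteins bind boundary elements and help to separate neighbouring stretches of chromatin, and several of them sit at the promoters of housekeeping genes. su(Hw) and CTCF are zinc finger proteins that recognise their own DNA motifs, BEAF-32 binds clusters of CGATA, and Cp190, mod(mdg4) and Chro (Chromator) are recruited to such sites by DNA-binding partners. Dref binds the DNA replication-related element (DRE), M1BP the GGTCACAC core of a common promoter motif, Trl (the GAGA factor) runs of GA repeats, and Adf1 was first described as an activator of the alcohol dehydrogenase gene. foxo is the forkhead transcription factor that enters the nucleus when insulin signalling is low.

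All 10 genes had at least 1 reproducible foxo summit in the gene or within 1000 bp. By the same rule 40.0% of all protein-coding genes had one (Wilson 95% interval 39.1 to 40.8), and 48.3% of the 6958 protein-coding genes whose length lies between those of the shortest and the longest of the 10. A summit within 1000 bp of an own annotated transcription start site (TSS) was present at 9 of the 10, mod(mdg4) being the exception, against 32.8% of all protein-coding genes. The genes of the set had 2.00 summits on average, against 0.915 for protein-coding genes of the same range of length. For 7 of the 10 a protein-coding gene starts on the opposite strand within 1000 bp upstream (Dref, M1BP, Adf1, Trl, Chro, Cp190 and su(Hw)), and all 7 had a summit near their own TSS. At Trl, however, no opposite-strand protein-coding start lay within 1000 bp of any summit. Among all 5052 genes with such a neighbour the share was 52.1%. These 10 genes were chosen with earlier results of these data known and are not a sample. The shares are therefore set side by side as a description.

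Peak signal, the value that the authors' peak caller gave each peak on a scale not stated, ranged from 182 to 5719 over the 20 summits, with a median of 588. It was 929 over the 17 summits among the top peaks of replicates 2 and 3, that is without replicate 1. All optimal peaks had a median of 321 and ran from 151 to 10606. Above that median lay 14 of the 20 summits, and 8 of the 10 genes had a summit above it. Of the 976 highest peaks in the list, 7 lay at 5 of these genes: Chro, Adf1, Trl, Cp190 and mod(mdg4). Such a peak was present at 10.4% of the protein-coding genes in the same range of length. The genes were chosen with earlier results known that had already placed Chro and Adf1 among the strongest promoter peaks. This contrast is therefore partly built in. CTCF and su(Hw) had the lowest maxima of the set, at 296 and 288, both just under the median of the list.

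**Figure D1:**
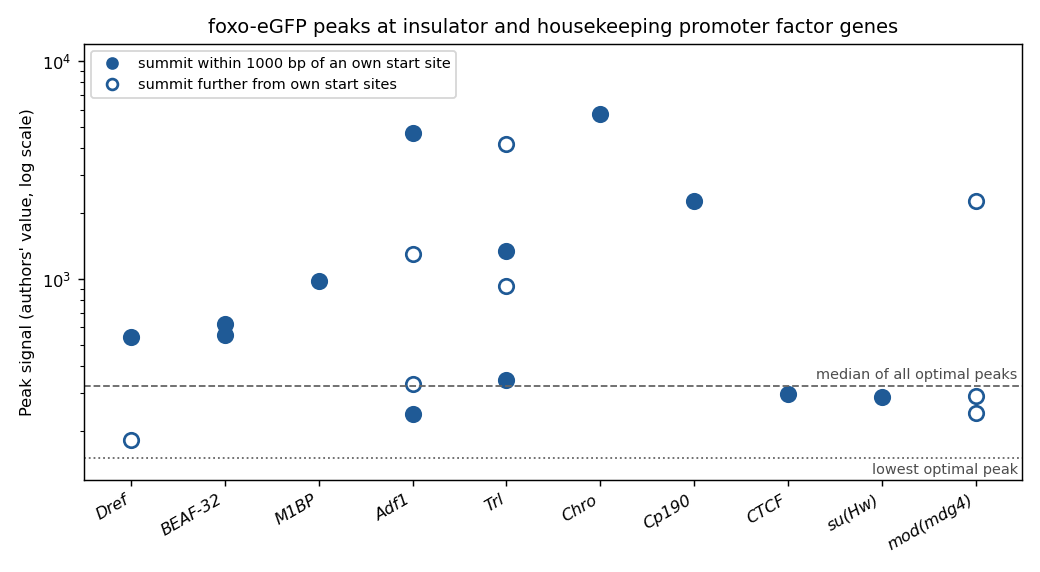
Signal of each optimal foxo summit at the 10 genes (y axis, the authors' value on a log scale) by gene (x axis). Filled points lie within 1000 bp of an own start site and open points lie further away. Chro, Adf1, Trl, Cp190 and mod(mdg4) reach above 2000, whereas CTCF and su(Hw) have 1 point each just under the dashed line, the median of 321 for all optimal peaks (the dotted line is the lowest optimal peak, 151).

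Most of the summits were among the top peaks of every replicate, while their ranks varied. A match within 100 bp among the 9766 highest regions of every replicate was found for 17 of the 20, against 65.2% of all optimal peaks. All 20 had a matching summit somewhere in each replicate's list of 30000 regions. Replicate 1 held 20 of the 20 in its top peaks, replicate 2 held 18 and replicate 3 held 19, where the shares over all optimal peaks were 85.8%, 86.4% and 80.5%. The worst rank of a summit divided by its best over the replicates had a median of 1.69 and reached 4.03, against a median of 1.55 for the 8572 optimal peaks matched in all lists. The 3 summits that missed a replicate's top peaks were the last of Dref, of mod(mdg4) and of Adf1, of signal 182, 243 and 239. A limit by rank favours strong peaks, and 14 of the 20 summits lay above the median signal of the list. The shares were not matched for signal, so they do not show better reproducibility at these genes. Because the optimal list was itself derived from these replicates, this correspondence is partly built in.

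**Figure D2:**
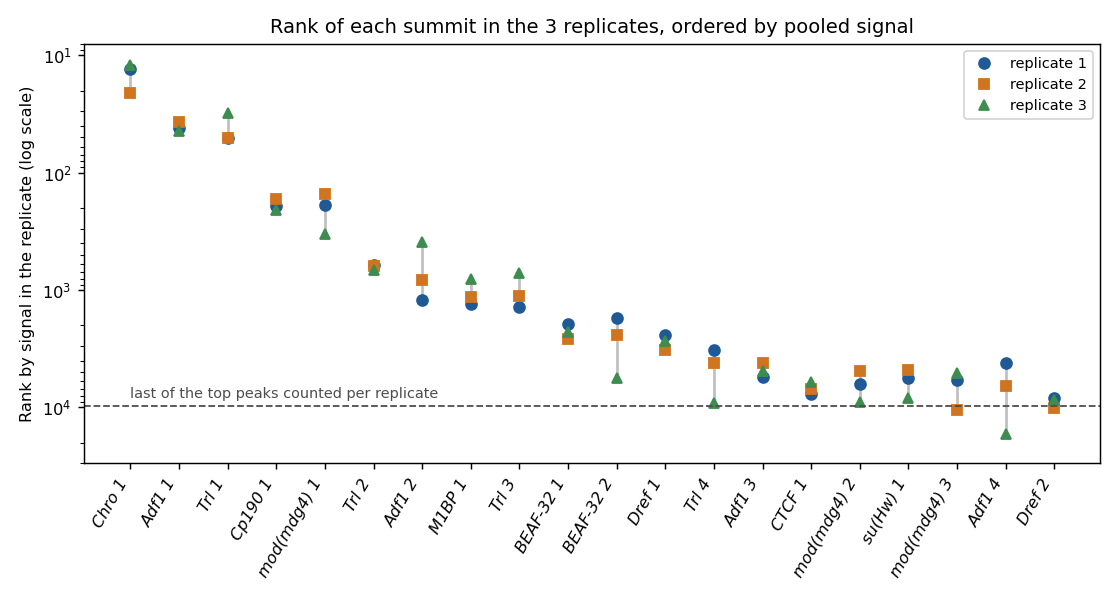
Rank of each of the 20 summits by signal (y axis, log scale, highest peak at the top) in replicates 1, 2 and 3, with the summits ordered along the x axis by signal in the optimal list and numbered within each gene by signal. The dashed line marks rank 9766. Trl 2 has the narrowest spread, at 612, 627 and 672, and Adf1 4 the widest, at 4167, 6555 and 16773.

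Chro and Cp190 each carried 1 strong peak at a promoter shared with a divergent neighbour. Chromator, a chromodomain protein of polytene interbands and a partner of BEAF-32, had 1 peak of signal 5719 (chr3L:22878643-22879156), at place 15 of the optimal list and 14 among the 4569 protein-coding genes with a TSS summit. It ranked 13, 21 and 12 in replicates 1, 2 and 3, with signals of 2277, 2225 and 1255 in their lists. All 3 replicates thus held it near the very top. The summit lay in the 5' UTR of Chro, 98 bp downstream of its first start, and 203 bp upstream of the start of Ssl1, which encodes a subunit of the general transcription factor TFIIH.

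Cp190, the BTB zinc finger cofactor that joins several insulator proteins, had 1 peak of signal 2291 (chr3R:15275140-15275609; place 183). Its ranks were 193, 166 and 208, with replicate signals of 846, 979 and 515. The replicates again gave it nearly the same place. The summit was intergenic, 133 bp upstream of Cp190 and 148 bp upstream of CG4338, which starts on the other strand, and so stood almost midway between both starts. An antisense RNA, asRNA:CR46081, starts 843 bp away.

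M1BP, the zinc finger protein of the promoter motif named after it, had 1 intergenic peak of signal 982 (chr3R:8731885-8732180; place 1073). It ranked 1319, 1157 and 800 in the replicates, with signals of 323, 376 and 285. The summit was 321 bp upstream of M1BP but only 72 bp upstream of the divergent gene CG8202. su(Hw), the zinc finger protein that binds the gypsy insulator, showed the same arrangement at lower signal. Its only peak, of signal 288 (chr3R:14308705-14309164; place 5386), lay 346 bp upstream of su(Hw) and 154 bp upstream of Polr2I, the gene of an RNA polymerase II subunit. It ranked 5581, 4793 and 8295, with signals of 109, 125 and 54.0, so replicate 3 placed it lowest. For both genes the summit was nearer the start of the neighbour than the own start, and the data do not assign it to one of them.

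Dref had 2 peaks. The higher, of signal 539 (chr2L:9967029-9967401; place 2632), had its summit on the annotated first base of Dref and 84 bp upstream of RpL13, a ribosomal protein gene on the opposite strand. It ranked 2402, 3262 and 2711, with signals of 220, 181 and 137. The other, of signal 182 (place 8364), lay past the 3' end of Dref, in the 5' UTR of CG5850 and 26 bp upstream of a start of that gene. It ranked 8396, 10095 and 8666, close to the limit of 9766 in every replicate, and was the lowest of the 20. CTCF had 1 peak of signal 296 (chr3L:7356418-7356877; place 5255), 65 bp downstream of its start in the 5' UTR, with no start of another protein-coding gene within 1000 bp of it and that of asRNA:CR45822 at 647 bp. It ranked 7615, 7002 and 6085, with signals of 79.6, 84.4 and 72.2, a lower place in each replicate than in the optimal list.

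The sequences at these promoters are shown because the summits sit in, or beside, the stretch upstream of a start that, for all but CTCF, is shared with a gene on the opposite strand. They are on the plus strand of dm6, 5′ to 3′, read from the NCBI Release 6 genome. For Dref, Chro and Cp190 the whole stretch between the starts is given, and for M1BP, su(Hw) and CTCF the part within 100 bp of the summit that lies outside annotated UTRs. Capitals mark matches to the DRE, to CGATA or to a forkhead core. The DRE is TATCGATA, which itself contains CGATA, and the forkhead core is ATAAACA or ATAAATA or GTAAACA or GTAAATA. Either strand counted.
Dref and RpL13 (chr2L:9967230-9967312): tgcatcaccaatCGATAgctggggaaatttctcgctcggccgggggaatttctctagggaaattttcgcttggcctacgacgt
Chro and Ssl1 (chr3L:22878985-22879088): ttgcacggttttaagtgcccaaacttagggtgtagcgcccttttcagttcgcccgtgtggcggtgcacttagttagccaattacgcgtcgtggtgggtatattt
Cp190 and CG4338 (chr3R:15275242-15275521): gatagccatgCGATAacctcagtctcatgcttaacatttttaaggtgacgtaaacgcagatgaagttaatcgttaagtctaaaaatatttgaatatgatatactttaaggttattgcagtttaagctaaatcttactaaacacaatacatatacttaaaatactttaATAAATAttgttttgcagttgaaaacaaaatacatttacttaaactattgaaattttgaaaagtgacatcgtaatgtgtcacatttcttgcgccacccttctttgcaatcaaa
M1BP and CG8202 (chr3R:8731919-8732090): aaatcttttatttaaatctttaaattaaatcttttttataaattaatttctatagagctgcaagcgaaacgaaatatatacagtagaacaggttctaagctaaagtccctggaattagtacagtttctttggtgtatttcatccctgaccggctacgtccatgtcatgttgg
su(Hw) and Polr2I (chr3R:14308835-14309035): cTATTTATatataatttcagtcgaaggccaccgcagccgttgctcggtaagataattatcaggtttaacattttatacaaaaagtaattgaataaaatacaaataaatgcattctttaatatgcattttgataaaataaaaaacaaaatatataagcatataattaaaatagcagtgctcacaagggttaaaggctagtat
CTCF (chr3L:7356714-7356748): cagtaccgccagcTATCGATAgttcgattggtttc
The first 4 letters of the Cp190 stretch are the end of a DRE that runs across the Cp190 start. Being an incomplete match, they are left in lower case. That DRE is centred at -132 bp from the summit, outside its window. The CGATA in capitals in the Cp190 stretch also lies outside that window and is not counted further on. The stretch of Cp190 had a GC content of 28.9%, and that of Chro, at 51.0%, held none of these motifs. The CGATA counted for Chro further on lies in its 5' UTR, 8 bp from the summit, outside the printed stretch. The capitals of su(Hw) are a forkhead core read on the minus strand, at the left end of its window. The 35 bp upstream of CTCF hold a complete DRE, 82 bp from the summit. The CGATA of the Dref stretch lies 15 bp from the summit.

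Trl and Adf1, which encode sequence-specific activators, each had 4 summits, a number reached by 4.84% of the protein-coding genes in the same range of length. The highest peak of Trl, of signal 4162 (chr3L:14759227-14759815; place 51), was not at a start site. It lay in an intron, 1553 bp downstream of the first start and 1534 bp upstream of the next, and ranked 51, 51 and 31 in the replicates, with signals of 1538, 1692 and 1079. Another, of signal 1344 (place 622), lay in a 5' UTR 139 bp downstream of an inner start of Trl and 765 bp from the start of CG42507. Its ranks of 612, 627 and 672 were the closest of the 20. A peak of signal 929 (place 1176; ranks 1396, 1132 and 722) followed 1133 bp downstream of that inner start, in an intron that also belongs to the overlapping CG42507. The last, of signal 346 (place 4524), lay in an intron 619 bp downstream of the first start, and ranked 3250 and 4205 in replicates 1 and 2 but 9152 in replicate 3.

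The sequence within 100 bp of the strongest Trl summit (chr3L:14759396-14759596, plus strand) is printed because it carries GTAAACA, the core of the FOXO binding element and 1 form of the forkhead core, in capitals.
Trl intron: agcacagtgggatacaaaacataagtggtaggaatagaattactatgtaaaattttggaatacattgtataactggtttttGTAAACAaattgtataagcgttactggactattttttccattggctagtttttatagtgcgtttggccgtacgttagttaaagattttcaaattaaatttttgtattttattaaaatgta
The centre of this match was 16 bp to the left of the summit. GAGAG, the letters bound by the product of Trl, was not among them.

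At Adf1 the strongest peak, of signal 4676 (chr2R:6662766-6663746; place 36), lay in an intron 842 bp downstream of the nearer of its 2 start sites. It ranked 42, 37 and 44, with replicate signals of 1725, 1916 and 964. A further summit of signal 1303 (place 655) lay 224 bp away and carries the same interval of 981 bp in the list, the widest of the set, so both are parts of 1 broad region. Its ranks were 1208, 814 and 386, and the start of lncRNA:CR45128, 859 bp away, was nearer to it than that of Adf1. The start of Adf1 itself had only a weak peak, of signal 239 (place 6511), 21 bp upstream of Adf1 and 126 bp upstream of the divergent gene Dpit47, which encodes a co-chaperone of Hsp90. That peak ranked 4167 and 6555 in replicates 1 and 2 but 16773 in replicate 3. Its signals in those lists were 142, 90.7 and 26.0, in the same order, and their scales may differ. This peak was the only 1 of the 20 whose rank varied by more than 4 times, and it was outside the top peaks of replicate 3. The remaining summit, of signal 330.0 (place 4744; ranks 5546, 4195 and 4910), lay past the 3' end of Adf1 and 134 bp upstream of CG9410, with the start of CG15908 at 740 bp.

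BEAF-32, the boundary element-associated factor, had a summit at each end of its group of 3 start sites. One, of signal 620 (chr2R:14771131-14771411; place 2202), lay in the 5' UTR 25 bp upstream of the last start, and ranked 1933, 2614 and 2277. The other, of signal 556 (chr2R:14770240-14770565; place 2532), lay 41 bp upstream of the first start, and ranked 1739 and 2418 in replicates 1 and 2 but 5585 in replicate 3. The summits were 848 bp apart. An antisense RNA, asRNA:CR42254, has a start 19 bp from the higher summit and another 158 bp from the lower one.

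mod(mdg4) differed from the other genes in where its peaks stood. This BTB protein gene makes many isoforms by trans-splicing: a common 5' part is joined to alternative 3' exons, some of them encoded on the opposite strand, and the annotation holds 23 separate pre-mod(mdg4) units for those exons. The highest peak, of signal 2283 (chr3R:21365190-21365702; place 185), lay 11919 bp downstream of the common start. A pre-mod(mdg4) unit starts within 1000 bp of it in 10 cases, 7 on the plus strand and 3 on the minus strand, the nearest 6 bp away and the plus strand starts 127 bp away. It ranked 189, 151 and 333, with replicate signals of 854, 1016 and 428. Another peak, of signal 289 (place 5370), lay 29 bp upstream of the common start of 3 further units, and ranked 6345, 4851 and 9034. The last, of signal 243 (place 6384; ranks 5789, 10490 and 5055), lay past the 3' end of the gene, 596 bp upstream of aus. The other 10 units had no start within 1000 bp of these summits.

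The common start of mod(mdg4), where transcription of the shared 5' part begins, had a region only below the reproducibility threshold. It lay 31 bp downstream of the start, with a pooled signal of 135 at place 10759, just past the last optimal peak at place 9766 (signal 151). Its ranks were 10727, 19475 and 10388. A strong optimal peak, of signal 1778 (place 340), stood 1378 bp upstream of that start and so just outside the 1000 bp of the rule. The lists held 9 regions below the threshold at the 10 genes in all, with pooled signals from 49.7 to 135, the one at the mod(mdg4) start being the highest. Other optimal summits between 1000 and 2000 bp outside a gene were at BEAF-32 (signal 207, 1019 bp away), Trl (322, 1397 bp) and mod(mdg4) again (188, 1929 bp). For Trl, 2 regions of pooled signal 76.8 and 73.4 lay at -187 and 38 bp from an inner start, counted in the direction of transcription, and the lower of them ranked 6717 in replicate 3 but had no match in the other replicates.

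The stretch beside the highest mod(mdg4) summit, from the start of unit E to the 100 bp limit and free of annotated UTRs (chr3R:21365489-21365582, plus strand), is shown because it separates unit E from the units of the plus strand, and it holds no match to these motifs.
mod(mdg4) inner starts: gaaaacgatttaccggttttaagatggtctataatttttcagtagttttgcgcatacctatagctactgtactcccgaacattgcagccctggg

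**Figure D3:**
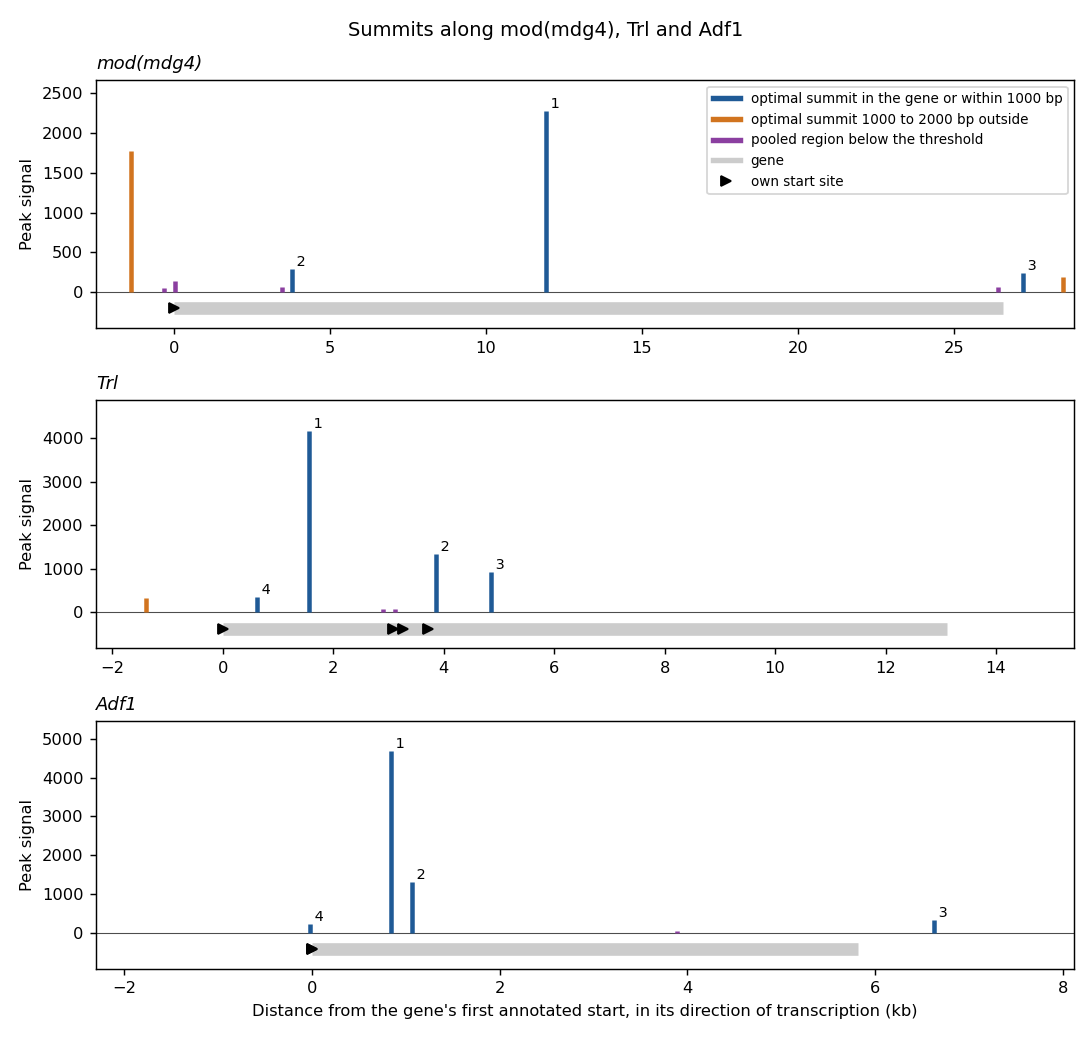
Signal of the peaks (y axis, authors' value) along mod(mdg4), Trl and Adf1 (x axis, distance in kb from the first annotated start of each gene, in its direction of transcription). Blue lines are optimal summits of the rule, orange lines optimal summits 1000 to 2000 bp outside the gene, purple lines pooled regions below the threshold, grey bars the genes and arrowheads their own start sites. In all 3 genes the tallest line stands inside the gene, at 11919, 1553 and 847 bp downstream of the first start and signals of 2283, 4162 and 4676.

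By position, 12 of the 20 summits were within 1000 bp of an own TSS and 17 were within 1000 bp of some protein-coding TSS. Annotated 5' UTRs held 7, introns 6, intergenic sequence 6 and an exon of the antisense RNA at BEAF-32 held 1. For 9 summits the start of another annotated gene was nearer than any own start. The summits had a density of 2.22 per 10 kb of gene with 1000 bp to each side (20 summits, exact Poisson 95% interval 1.36 to 3.43, counting error only), against 0.729 over the main chromosome arms. These spans include promoters, which the arms as a whole mostly do not. The median GC content of the summit windows of 201 bp was 35.8%, against 35.3% for all optimal summits.

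The motifs of these factors were searched at their own genes, in windows of 100 bp to each side of the summit. The DRE was present at 1 of the 20 summits, that of CTCF, against 3.03% of all optimal summits and 6.40% of the 19247 promoter windows of protein-coding genes (the 200 bp upstream of a TSS). The M1BP motif GGTCACAC was present at 1, the lower summit of Dref, against 2.32% of optimal summits and 3.61% of promoter windows. CGATA, the core letters of BEAF-32 sites, was present at 7, against 26.9% and 37.1%. The 7 were both summits of Dref, 2 of Adf1, the higher of BEAF-32, and those of Chro and CTCF. GAGAG was present at 3, against 23.6% and 25.8%, and none of the 4 Trl summits held it. The CTCF core AGNTGGCGC was present at 0, against 1.48% and 1.00%. The Su(Hw) site was present at 0 as well, against 0.778% and 0.343%, and a count of 0 in 20 windows allows a share of up to 15%. In flank windows 500 bp to the left of all optimal summits the DRE was present at 0.543% and the M1BP motif at 0.502%. CGATA was present there at 21.4%, GAGAG at 25.6%, the CTCF core at 0.799% and the Su(Hw) site at 0.297%. With counts this small, none of the shares at the 20 summits is set apart from its background.

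The forkhead core was present at 8 of the 20 summits, against 36.8% of all optimal summits and 33.5% of promoter windows, a share near both. In flank windows 500 bp to the left of all optimal summits the core was present at 26.1%. Its preferred form GTAAACA was present at 4, those being both BEAF-32 summits, the highest of Trl and the highest of mod(mdg4). The background shares were 5.73% of optimal summits, 5.64% of promoter windows and 4.65% of the flank windows. The count of 4 is small and takes in both summits of BEAF-32, and its difference from the background was not tested. The lower BEAF-32 summit held GTAAACA at both -10 and 30 bp, and the higher at -64 bp. The match at mod(mdg4) was at -76 bp and that at Trl at -16 bp, counted on the plus strand. The windows of the Chro summit and of the highest Adf1 summit held no forkhead core, whereas that of the neighbouring Adf1 summit, in the same peak interval, held 3.

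**Figure D4:**
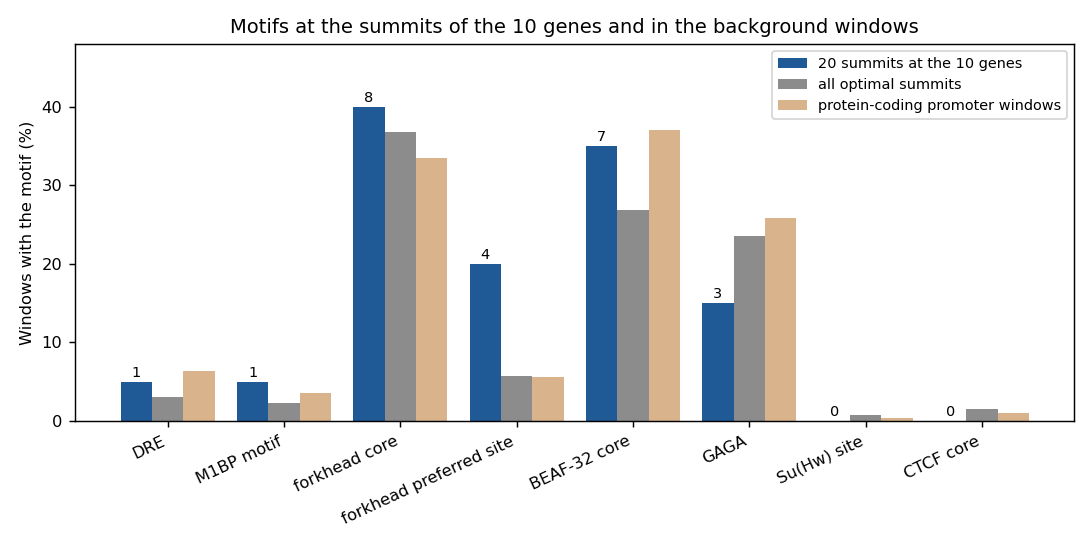
Share of windows of 201 bp that hold each motif (y axis, %) at the 20 summits of the 10 genes, at all optimal summits and in promoter windows, with the number of the 20 above each blue bar. The bars named BEAF-32 core count CGATA. The forkhead preferred site (GTAAACA) stands at 4 of 20 and the forkhead core at 8 of 20, and each of the DRE and the M1BP motif rests on 1 summit.

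Other genes of insulator, cohesin and promoter function were examined as well. Of 30 such genes, 14 (46.7%) carried a summit of the optimal list no further than 1000 bp from a start, against the 32.8% of all protein-coding genes, and 16 carried none. The same 14 are those with a summit anywhere in the gene or within 1000 bp, the rule used for the 10 genes, against 40.0% of all protein-coding genes. By that rule the share was 48.3% for genes in the length range of the 10. By the TSS rule it was 52.1% for genes with an opposite-strand neighbour, so 46.7% lies below both. The 30 were not matched for length or neighbours, and were also listed with earlier results of these data known. The highest was row, whose zinc finger product works with woc at promoters (signal 1281, place 679; ranks 630, 599 and 1026). It was followed by the histone H3 kinase gene JIL-1 (949), by lolal, which encodes a BTB partner of the GAGA factor (940), by e(y)2, a subunit gene of the SAGA and mRNA export complexes (731), and by gfzf, whose product works with M1BP (678). All 5 stood below Chro, Adf1, Cp190 and the highest TSS peak of Trl. The 16 without one included the cohesin genes vtd, SMC1 and SMC3 with the loader gene Nipped-B. They also held Ibf1 and Ibf2, which encode partners of Cp190, and the genes of the ELBA boundary complex, Elba1, Elba2 and Elba3. The median signal of the 14 was 551, against 460 for the highest TSS peak of all protein-coding genes that had one.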

How the data were processed

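Binding of foxo-eGFP was measured by ChIP-seq in 3 biological replicates, numbered as in the labels, from larvae whose number per library is not stated; chromatin was sonicated to 200 to 800 bp. The deposited files are narrowPeak lists whose column 7 holds the signal of the authors' peak caller. Its scale is not stated, so lists were compared by rank, and replicate signals printed side by side may differ in scale. Per the deposited listings, each replicate and the pool have a relaxed list of 30000 regions, prepared for the irreproducible discovery rate (IDR) step from the alignments and 1 further file, and the optimal list derives from these. Aligner, caller and IDR threshold: not given in the sources used here. Peak lists leave the depth unknown. The dm3 lists were not used.

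Summits (start plus offset, written 1-based) were joined to Ensembl release 115 genes of the dm6 assembly, without transposable elements, in Python 3.11.15 with NumPy 2.4.6, SciPy 1.17.1 and matplotlib 3.10.9. A replicate match was the nearest summit within 100 bp. Sequences came from the NCBI Release 6 genome. The joins and motif searches, on both strands, were tested on simulated data with planted summits and motifs. The design holds 1 group, so no groups were tested against each other. Intervals cover counting error only. All 10 genes are described whatever their values, with neighbours whose start lies within 1000 bp of a summit (pre-mod(mdg4) units by number) and the 5 highest of the related genes. Windows, thresholds, matching and motif spans were varied and each replicate left out in turn. Members, lists and motifs were chosen with earlier results of these data known, which had already placed Chro and Adf1 among the strongest promoter peaks.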

Additional observations from a re-analysis of the deposited data

How the results depend on the processing

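All 10 genes kept an optimal summit with a window of 500 or 2000 bp and when each replicate was left out in turn (keeping summits among the top peaks of the other two), and 8 did in the upper part of the optimal list (4883 peaks), where those of CTCF and su(Hw) are absent. A summit near an own TSS was found for 7 to 10 genes, the 10th being mod(mdg4) with a window of 2000 bp. The number of summits in the top peaks of all replicates was 11 with 4883 top peaks per replicate, and between 13 and 20 otherwise. The median signal was 775 with a window of 500 bp, 548 with 2000 bp, and between 620 (without replicate 2) and 929 (without replicate 1) when 1 was left out. The DRE count was 0 in the upper part of the list and with a motif window of 50 bp, and 4 with 250 bp (CTCF, Cp190, BEAF-32 and Adf1), against 5.35% of all optimal summits. The M1BP motif count was 0 in the upper part of the list, and 2 with 250 bp, against 4.34% of all optimal summits. It was between 0 and 1 without 1 of the replicates. With 250 bp the CTCF core, absent in the main window, was present at 3 summits (Trl 1, Trl 3 and Adf1 4), against 2.61%. The Su(Hw) site stayed at 0, against 1.37%. The DRE summit of CTCF is not in the upper part of the list, and the Dref summit with the M1BP motif is outside the top peaks of replicate 2. Leaving out a replicate removed only the last summits of Dref, mod(mdg4) or Adf1, of signal 182, 243 and 239. These lie below the median of 588, so the median of the rest was higher. The signals were still those of the list from all 3 replicates. For the other values that moved the cause was not tested. Of the alternatives run gene by gene, chosen after seeing the data, 53 gave a summit number within 1.5 times the main one and 7 did not. Without an input or untagged library, and with the depth unknown, none of these values bounds the signal that does not depend on foxo.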
